A study of Mus musculus with 20 samples.

Results

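Dense runs of accessible regions were examined in mouse embryonic stem (ES) cells. A run was a chain of 10 or more neighbouring ATAC-seq peaks in which no gap exceeded 10000 bp, and its members were chosen by the measured peak positions. The rule kept 15454 of the 102373 listed peaks (15.1%), in 1102 runs. A stretch of chromosome 4 was left out by the rule, and its 486 peaks entered neither side of any comparison of peaks. Genes in this stretch stayed in the gene counts, where they could only fall outside runs. The term "other peaks" is used for the remaining 86433 peaks, which stood alone or in chains of 2 to 9.

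The list came from ZHBTc4 cells, in which doxycycline (dox) switches off Pou5f1, the gene of OCT4. They were grown with serum, LIF and inhibitors of GSK3 and MEK. The cells also carried YPet-MD, a cell cycle reporter, and either SNAP-MD-OCT4, which is degraded on exit from mitosis, or SNAP-MD*-OCT4, whose degron is mutated, both expressed by lentivirus from the constitutive PGK promoter in cells sorted for similar average levels. After 40 h in dox, cells of each construct were sorted by YPet-MD and DNA content into 4 phases (EG1 and LG1 for the early and late part of G1, S, and SG2 for the end of S with G2), with 2 replicates of each. Another 4 libraries, 2 per construct, came from unsorted cells without dox and did not enter the list. The peaks of all 16 dox-treated libraries had been merged to a single list of positions, so a peak seen in 1 library and a peak seen in all 16 count alike, and no value of a single library, phase or construct could be given. The depth behind each peak is unknown. The intervals given are 95% confidence intervals for counting error alone, as if peaks were independent, although peaks of 1 list are not replicates.

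In ATAC-seq, a transposase inserts adapters where DNA is free of nucleosomes, mostly at promoters, enhancers and sites bound by CTCF, the factor that anchors chromatin loops. OCT4 and SOX2 bind side by side at a composite element and hold many ES cell enhancers open. Genes that define a cell type are often surrounded by many enhancers, whereas gene-rich stretches hold many promoters close together, so that a dense run of peaks can be of either make-up.

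The composite OCT4::SOX2 element is shown first, since OCT4 was the factor under study. A match with at most 2 mismatches to the 15-base consensus lay in 77 of the 11086 distal peaks of the runs, that is, peaks over 1000 bp from any transcription start site (TSS). These 77 peaks fell in 74 runs, and 3 runs held 2 or more of them. The 9 matches with at most 1 mismatch are printed in GRCm38, on the strand of the match, with the match in capitals and 20 bases on each side.
Near Tcf7, chr11:52286547-52286601, plus strand: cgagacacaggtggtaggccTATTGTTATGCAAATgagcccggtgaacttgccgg
Pitpnc1 intron, chr11:107352977-107353031, plus strand: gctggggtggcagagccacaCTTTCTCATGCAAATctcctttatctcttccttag
Near Six4, chr12:73086053-73086107, plus strand: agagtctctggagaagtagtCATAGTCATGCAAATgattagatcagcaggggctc
Near Lrrc74a, chr12:86771071-86771125, plus strand: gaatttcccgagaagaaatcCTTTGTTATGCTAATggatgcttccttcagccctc
Foxn3 intron, chr12:99399599-99399653, minus strand: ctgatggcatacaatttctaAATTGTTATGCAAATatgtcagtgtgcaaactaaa
Near Slain2, chr5:72902502-72902556, plus strand: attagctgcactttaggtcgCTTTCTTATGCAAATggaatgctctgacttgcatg
Gtf2i intron, chr5:134303872-134303926, plus strand: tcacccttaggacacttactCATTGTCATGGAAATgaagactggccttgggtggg
Near Klf13, chr7:63957227-63957281, plus strand: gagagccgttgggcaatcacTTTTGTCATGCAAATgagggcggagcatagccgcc
Rgma intron, chr7:73400375-73400429, plus strand: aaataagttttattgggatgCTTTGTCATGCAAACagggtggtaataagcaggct

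All 9 had exactly 1 mismatch. The site near Tcf7, which encodes a Wnt-responsive transcription factor, lay 3560 bp from its TSS in a run of 19 peaks. That in the Pitpnc1 intron also belonged to a run of 19 peaks and was 117695 bp from the TSS of its gene. The other sites came from runs of 11 to 18 peaks, and the nearest coding TSS was 10861 bp away at Gtf2i and 163956 bp away at Foxn3.

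A further 4 matches with 2 mismatches are shown because of their neighbours, a choice made after their positions were known.
Run of the microRNA-290 cluster, chr7:3204330-3204384, plus strand: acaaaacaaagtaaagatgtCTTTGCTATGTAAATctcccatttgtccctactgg
Upstream of Pou5f1, chr17:35504029-35504083, minus strand: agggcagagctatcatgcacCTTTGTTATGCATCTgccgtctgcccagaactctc
Dnmt3l intron, chr10:78048334-78048388, minus strand: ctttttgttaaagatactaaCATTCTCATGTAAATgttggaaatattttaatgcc
Tet2 intron, chr3:133534463-133534517, minus strand: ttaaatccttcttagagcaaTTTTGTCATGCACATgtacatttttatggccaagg

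The first lay in the run of 11 peaks that holds the microRNA-290 cluster, and the second 1962 bp from the TSS of Pou5f1, in a run of 10 peaks. The last came from a run of 10 peaks at Tet2, which encodes an enzyme that oxidises 5-methylcytosine. A match is a description of the sequence, not evidence of binding. The study searched motifs with HOMER and, in other sets of loci, reported the canonical motif at many more loci than matched here. The count of consensus matches is therefore not the number of composite elements. The share of peaks with a match is set beside that of other distal peaks further on.

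Many mammalian promoters are rich in CpG dinucleotides and stay free of DNA methylation. From the CpG-richest promoter-proximal peak of a run, the 150 bases with the most CpG outside annotated exons are given for 4 of the 10 runs with the most peaks, 3 with a single protein-coding TSS and 1 with 14, on the plus strand of GRCm38, with each CpG in capitals.
Tcf7l1, chr6:72789256-72789405, plus strand: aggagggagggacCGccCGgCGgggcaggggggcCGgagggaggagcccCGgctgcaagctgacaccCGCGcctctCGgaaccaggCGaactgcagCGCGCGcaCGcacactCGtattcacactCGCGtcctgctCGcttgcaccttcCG
Within Zfp217, chr2:170131249-170131398, plus strand: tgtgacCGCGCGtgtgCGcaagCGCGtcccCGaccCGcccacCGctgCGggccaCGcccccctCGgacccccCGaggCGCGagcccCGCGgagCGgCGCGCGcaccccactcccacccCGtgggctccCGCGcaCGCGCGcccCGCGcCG
Stk24, chr14:121379348-121379497, plus strand: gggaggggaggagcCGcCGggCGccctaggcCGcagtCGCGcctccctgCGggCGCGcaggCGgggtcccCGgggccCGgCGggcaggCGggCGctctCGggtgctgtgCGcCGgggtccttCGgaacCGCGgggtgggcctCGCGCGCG
Adam15, chr3:89350000-89350149, plus strand: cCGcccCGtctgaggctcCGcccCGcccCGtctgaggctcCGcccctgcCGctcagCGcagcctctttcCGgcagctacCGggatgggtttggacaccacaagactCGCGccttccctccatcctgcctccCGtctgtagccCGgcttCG

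These windows held 18, 30, 25 and 15 CpG, respectively. The windows of Tcf7l1 and Adam15, a metalloproteinase gene, lay 76 and 78 bp from the annotated gene start, and that of Stk24 589 bp. The Zfp217 window lay inside the gene, 16780 bp from its 5' end, in a peak that overlapped the TSS of another annotated transcript.

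Consensus sites of CTCF with no mismatch lay in the distal peaks of 5 of the 10 runs with the most peaks. A site outside exons is shown for 4 of these runs, with the match in capitals.
Run of Efna3, chr3:89308249-89308302, minus strand: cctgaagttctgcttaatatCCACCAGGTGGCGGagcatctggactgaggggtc
Run of Nfkbie, chr17:45478614-45478667, plus strand: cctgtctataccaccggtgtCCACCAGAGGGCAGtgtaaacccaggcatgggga
Run of Zfp217, chr2:170116832-170116885, plus strand: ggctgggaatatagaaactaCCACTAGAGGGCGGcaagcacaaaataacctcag
Run of Fscn1 and Actb, chr5:142879488-142879541, plus strand: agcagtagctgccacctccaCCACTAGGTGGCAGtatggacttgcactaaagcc

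The runs ranged from 10 to 44 peaks, with a median of 12 and quartiles of 11 and 16. Their spans ranged from 8777 to 197794 bp, with a median of 53925 bp, and added up to 65.1 Mb or 2.46% of the assembled sequence. Inside a run the median gap between peaks was 3739 bp, and peaks covered 13.0% of the total span. Runs of 20 or more peaks numbered 127 and held 3105 peaks, and only 19 runs reached 30 peaks. At the threshold, the 250 chains of exactly 10 peaks had a median span of 41942 bp and 27.2% promoter-proximal peaks, and the 368 chains of exactly 9 had 36846 bp and 26.7%.

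Every chromosome had at least 1 run, but their density differed. Chromosome 11 held 109 runs, or 9.18 per 10 Mb of assembled sequence, and 21.7% of its peaks were in runs. Chromosome 17 followed with 6.98 runs per 10 Mb and chromosome 7 with 6.13. Chromosome X had 6 runs with 65 of its 1804 peaks, the lowest share of any chromosome. On chromosome Y, 23 of only 38 listed peaks formed 2 runs. Of these 23 peaks, 20 were multicopy, meaning that over 50% of their 24-base words occurred more than once in the assembled genome, and reads from such sequence cannot be placed with certainty.

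**Figure D1:**
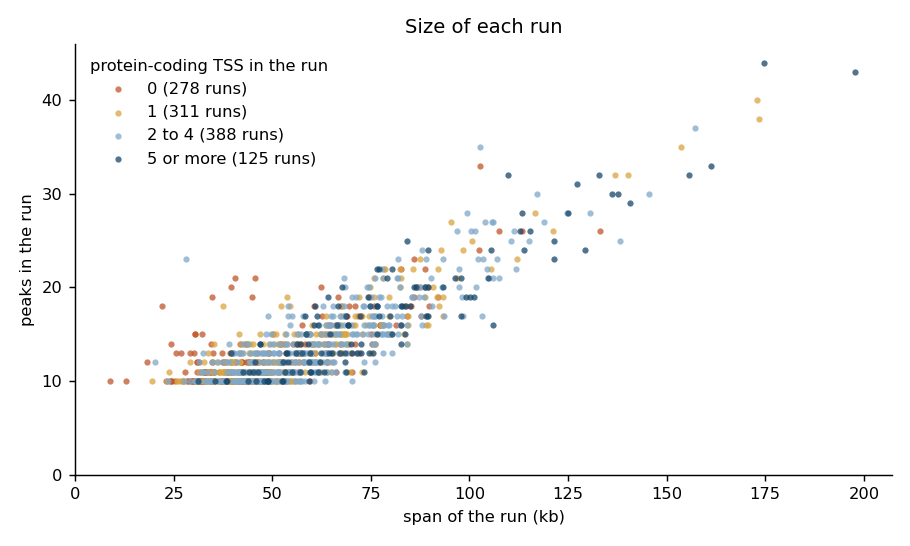
Peaks per run against the span of the run in kb, with 1 point for each of the 1102 runs, coloured by the number of protein-coding TSS inside it. Runs without a protein-coding TSS reach 33 peaks, and the 2 largest runs hold 5 or more TSS.

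The 2 largest runs were packed with genes. The first, with 44 peaks over 174767 bp (chr3:89262468-89437234), held 14 protein-coding TSS, among them Efna1, Efna3 and Efna4, which encode ephrin ligands of cell contact signalling, Shc1, an adaptor of receptor tyrosine kinases, and Cks1b, a cofactor of cyclin-dependent kinases. Of its peaks, 23 were promoter-proximal and 21 distal. Efna3 had 9 peaks of the run within 10000 bp of its TSS, more than the other genes of this run, which had 2 to 6. The second, with 43 peaks (chr17:45432895-45630688), was also the longest and held 10 protein-coding TSS, including Hsp90ab1, a cytosolic chaperone, Slc29a1, a nucleoside transporter, and Nfkbie, an inhibitor of NF-kappaB. It had 20 promoter-proximal and 23 distal peaks, and 10 of the 43 contained a CTCF match.

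The runs ranked 3, 4 and 7 by peaks held many distal peaks and a single protein-coding TSS. Tcf7l1, a repressor of Wnt target genes that limits self-renewal in ES cells, was the only protein-coding TSS in a run of 40 peaks (chr6:72690537-72863389), of which 36 were distal. This run also overlapped Kcmf1, whose TSS lay outside it. Zfp217, a zinc finger gene, was alone in a run of 38 peaks (chr2:170094142-170267424), with 32 distal. The run of 35 peaks at Stk24 (chr14:121303372-121457106), a kinase gene, had 31 distal peaks. Within 10000 bp of the TSS lay 5 peaks of the run at Tcf7l1, 5 at Zfp217 and 3 at Stk24, beside a median of 4 over genes in runs. Outside the rule for named runs, and chosen after their values were seen, Tfap2c, a regulator of trophoblast and germ cells, and Ror2, a Wnt receptor, stood alone in runs of 32 peaks (29 distal) and 28 peaks (26 distal). Ranked between them, 9130230L23Rik was the only protein-coding TSS in a run of 32 peaks, with 19 distal and 13 promoter-proximal.

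Of the other runs with the most peaks, that at Actb, the beta-actin gene, held 37 peaks (chr5:142836919-142994208) and also Fscn1, which bundles actin, and Fbxl18. A run of 33 peaks (chr2:32566586-32727912) with 10 protein-coding TSS included Eng, a coreceptor for TGF-beta ligands, and Cdk9, the kinase that releases paused RNA polymerase. A run of 32 peaks (chr13:23488748-23598444) held 15 protein-coding TSS, of which 14 were replication-dependent histone genes, with 18 promoter-proximal peaks. Histone genes are near-identical copies, and the median share of repeated 24-base words was 17.6% in this run against 0 to 1.33% in the runs at Efna3, Nfkbie, Tcf7l1, Zfp217, Fscn1, Stk24 and Eng.

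In 2 of these 10 runs many peaks were multicopy, as defined for chromosome Y, against 0 to 2 peaks in each of the other 8. The 35 peaks at Sfi1 (chr11:3100425-3203180) had a median GC content of 44.1% and a median soft-masked share of 38.1%, and 8 of them were multicopy. No peak was listed before this run on the chromosome. The 33 peaks on chromosome 13 (chr13:12842285-12945034) contained no protein-coding TSS, the nearest being that of Prl2c3, a placental prolactin-family gene, at 42206 bp. They were narrow, with a median of 213 bp, low in GC (39.1%), and 22 of the 33 were multicopy.

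**Figure D2:**
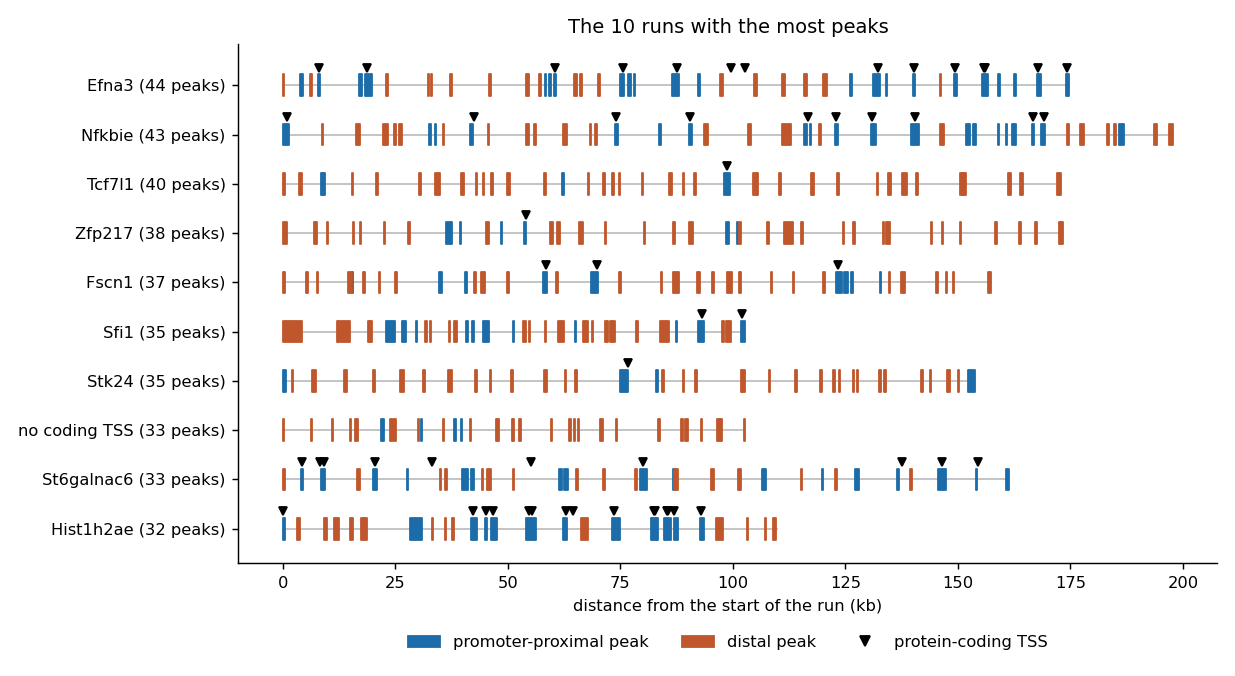
Positions of peaks in the 10 runs with the most peaks, in kb from the start of each run. Blue bars are promoter-proximal peaks, orange bars distal peaks and triangles protein-coding TSS, and each run is named by its gene with the most peaks nearby. The runs of Efna3 and Nfkbie carry 14 and 10 triangles, and those of Tcf7l1, Zfp217 and Stk24 carry 1 each.

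The 3 densest runs were short. A run of 10 peaks within 8777 bp on chromosome 2 (chr2:116553218-116561994) had 11.4 peaks per 10 kb, against a median of 2.35 over all runs, and its nearest protein-coding TSS, that of Tmco5, was 316697 bp away. The next peak on either side was 17441 and 174086 bp from this run. A run of 23 peaks in 28045 bp (chr4:62360186-62388230) held the TSS of Fkbp15 and Slc31a1, a copper transporter gene, and peaks covered 42.7% of it. A run of 18 peaks in 22073 bp (chr5:29749130-29771202) lay over Dnajb6. None of the peaks in these 3 runs had a match to the OCT4::SOX2, KLF or CTCF consensus. Their median share of repeated words was 19.4, 0.309 and 0.497%.

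Protein-coding TSS were unevenly spread over the runs. None lay in 278 runs (25.2%), 1 in 311 runs, 2 to 4 in 388 runs and 5 or more in 125 runs (11.3%). The promoter-proximal share of peaks was 14.6, 20.8, 32.8 and 53.9% in these 4 kinds of run, since each TSS can contribute a promoter peak. Median run size was 11, 12, 13 and 16 peaks. After that on chromosome 13, the largest runs without a protein-coding TSS were 3 that tied at 26 peaks. They lay over Myo10 (chr15:25707050-25814453), a myosin of filopodia, over Manba and Nfkb1 (chr3:135499293-135612491), and over Dst (chr1:34032175-34165371), a cytoskeletal linker, and held 20, 21 and 24 distal peaks. The first 2, which the rule for named runs takes by their shorter span, had a median repeated share of 0%.

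Of 21938 protein-coding genes, 2190 (9.98%) had their TSS inside a run, or 33.7 per Mb of run against 8.29 per Mb of assembled sequence. The rule counts promoter peaks toward a chain, so this density is partly built in. A peak lay within 1000 bp of the TSS for 1989 of these 2190 genes (90.8%) and for 12509 of the 19748 genes outside runs (63.3%). This contrast is also largely fixed by the rule, since a TSS inside a run lies in a peak or in a gap of at most 10000 bp between peaks. A gene in a run had a median of 4 peaks of its run within 10000 bp of the TSS, and at most 10.

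Genes of the pluripotency network were found in runs in 8 of 20 cases (40%, Wilson interval 21.9 to 61.3), beside the background of 9.98%. That background includes genes without a peak within 1000 bp, so it is lower than the share among genes with one. Of genes with such a peak, 1989 were in runs and 12509 were not, which applies to all the lists below. Prdm14, a repressor that protects naive pluripotency, and Fgf4, the ligand that primes ES cells for differentiation, each lay in a run of 21 peaks, with 17 and 18 distal. Klf2, a Krüppel-like factor of the naive state, was the only protein-coding TSS in a run of 20 peaks, 6 of them within 10000 bp of the TSS. Runs of 12 peaks held Lin28a, which blocks let-7 maturation, and Tbx3, a T-box factor. Sox2, the partner of OCT4, and Nanog were in runs of 11 peaks (5 and 9 distal), and Pou5f1 in a run of 10 with 7 distal. The other 12 genes, among them Klf4, Esrrb, Tfcp2l1 and Zfp42, were outside runs. A peak lay within 1000 bp of the TSS in 17 of the 20 genes.

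Of 16 genes of ES cell signalling, 6 were in runs (37.5%, 18.5 to 61.4). Tcf7l1 was described above. Smad7, an inhibitor of TGF-beta signalling, lay in a run of 26 peaks with 24 distal, and Lifr, the receptor for the self-renewal cytokine LIF, in a run of 21 with 18 distal. Id1, a BMP target, had 17 peaks in its run, 9 of them within 10000 bp of its TSS. Nodal, a TGF-beta family ligand, and Axin2, a Wnt target, were each the only protein-coding TSS in a run of 10.

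Trophoblast regulators, which OCT4 is known to hold silent in ES cells, were in runs in 6 of 14 cases (42.9%, 21.4 to 67.4). Beside the 32 peaks of Tfap2c, these were Tfap2a with 18 peaks, Tead4 with 15, Dlx3 with 13, Gata3 with 11 and Cdx2 with 10. At Tfap2a the nearest peak was 3695 bp from the annotated gene start, and at the other 5 a peak overlapped it. None of the 10 endoderm genes and none of the 10 mesoderm genes was in a run, which allows a share of up to 30% in each, and a peak lay within 1000 bp of the TSS in 7 and 10 of them. The mesoderm gene Tbx6 had its nearest peak, 675 bp away, in a chain of 11, but its TSS was outside that chain. Of 10 neural genes, Pax6 alone lay in a run, with 12 peaks (10%, 1.79 to 40.4), close to the background of 9.98%. Of 10 genes of the formative state, Dnmt3b (19 peaks), Etv5 (15) and Dnmt3l (10) were in runs (30%, 10.8 to 60.3).

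Among 16 cell cycle genes, Cdk1 (15 peaks), Cdk2 (11), Aurkb (12) and Ccnd3 (11) were in runs, and among 16 genes of chromatin remodelling and looping, Chd4, Smarcb1, Mbd3 and Rad21, with 10 each. With 25% in both lists, the lower end of the interval (10.2%) was close to the background of all genes. A peak lay within 1000 bp of the TSS in 15 and 16 of these genes, so the share among genes with a peak is the nearer comparison.

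Gene families that lie in tandem differed widely. Hox genes, which pattern the body axis, had 30 of 39 TSS in 5 runs (76.9%, 61.7 to 87.4). The largest of them, with 25 peaks over Hoxa3 to Hoxa13 (chr6:52190428-52274480), had 18 promoter-proximal peaks and a median GC content of 58.7%. Replication-dependent histone genes had 30 of 72 in 4 runs and clustered protocadherins, the surface proteins that give neurons their identity, 27 of 57 in 4 runs. Ribosomal protein genes were scattered, with 24 of 85 genes (28.2%, 19.8 to 38.6) in 24 runs. Solute carriers were at 13.5% (45 of 334). Zinc finger genes named Zfp were at 6.14% (24 of 391, 4.16 to 8.97), below the background. Of these Zfp genes, 87.7% had a peak within 1000 bp. Any Zfp genes in the left-out stretch of chromosome 4 were counted among the 391 and could only fall outside runs. Their part in the low share was not tested. Of 49 keratin genes, Krt17 and Krt42 shared a run of 17 peaks. No olfactory receptor (0 of 1093, which allows a share of up to 0.274%) and no vomeronasal receptor (0 of 327, up to 0.917%) had its TSS in a run, and 1.92 and 2.75% of them had a peak within 1000 bp. Neighbours of a cluster share a run, so genes of a family are not independent.

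**Figure D3:**
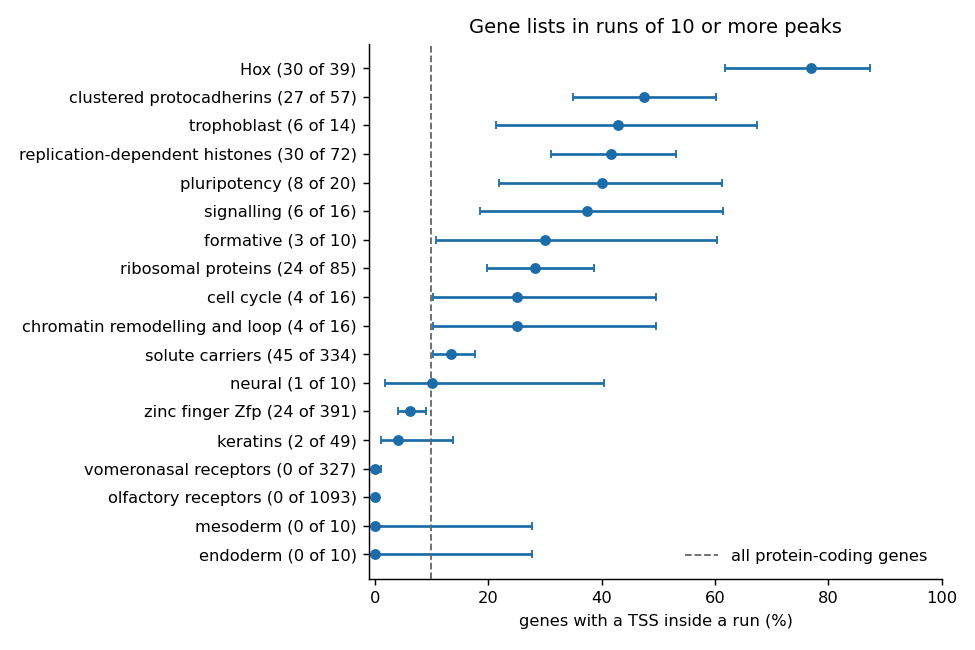
Percent of each gene list with a TSS inside a run of 10 or more peaks, as points with Wilson 95% intervals, and the 9.98% of all protein-coding genes as a dashed line. Hox genes lie highest at 76.9%, and olfactory and vomeronasal receptors at 0.

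MicroRNA hairpins were in runs in 121 of 1005 cases (12.0%). The counts are of hairpin entries in the RefSeq table. The run with the most entries, 8, was that of the microRNA-290 cluster (chr7:3184133-3222593), which also held the mature miRNAs of Mir291a and whose products promote the rapid ES cell cycle. It had 11 peaks, of which 9 were distal, and no protein-coding TSS. Those mature miRNAs listed for the cluster that carry AAGUGC within the seed are shown (bases 2 to 8, in capitals, RefSeq, GRCm38.p6). They were picked after the run was known, because miRNAs with a like seed bind like targets.
mmu-miR-290a-3p: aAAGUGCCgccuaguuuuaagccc
mmu-miR-291a-3p: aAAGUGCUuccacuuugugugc
mmu-miR-291b-3p: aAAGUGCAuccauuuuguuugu
mmu-miR-294-3p: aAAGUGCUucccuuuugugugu
mmu-miR-295-3p: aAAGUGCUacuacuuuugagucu

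These were 5 of the 17 mature miRNAs listed in the run, and 3 of them (miR-291a-3p, miR-294-3p and miR-295-3p) had the same seed, AAGUGCU. For Mir292 only the 5p product (miR-292a-5p) was listed, so both counts may leave out members of the cluster. Other hairpins in runs were Mir141 and Mir200c, of the miR-200 family that maintains epithelial character, in a run of 28 peaks, Mir34a, a p53 target, in a run of 25, and Mir196b, Mir10a and Mir196a-2 in the Hox runs.

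Peaks in dense runs were compared with other peaks in position relative to genes and in sequence. They were set beside isolated peaks and chains of 2 to 4 and 5 to 9. The rule used neither TSS nor sequence, but it counts promoter peaks toward a chain. A higher promoter-proximal share in longer chains can therefore be partly built in. The promoter-proximal share was 28.3% (27.6 to 29.0) in runs, 25.8% in chains of 5 to 9, 24.5% in chains of 2 to 4 and 23.1% at isolated peaks. The difference between runs and other peaks was 3.75 percentage points (2.99 to 4.52) and positive on 17 of 20 chromosomes, Y left aside, with a mean of 2.91 ± 3.87 (SD, n = 20 chromosomes). When TSS of protein-coding transcripts alone were used, it was 1.08 (0.426 to 1.75), with 18.5% in runs and 17.5% at other peaks.

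GC content followed the same order. The median over all peaks was 52.4% in runs and 49.7% at other peaks, a difference of 2.73 points (2.61 to 2.86) that was positive on 20 of 20 chromosomes (mean 2.27 ± 1.06, SD). It lay in the distal peaks, with medians of 51.0% in runs, 49.6% in chains of 5 to 9, 48.1% in chains of 2 to 4 and 46.7% at isolated peaks. Promoter-proximal peaks did not share it, with 57.3% (57.0 to 57.5) in runs and 57.4% (57.3 to 57.6) at other peaks.

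Fewer promoter-proximal peaks were CpG-rich in runs, defined by a GC content of at least 50% and a CpG observed/expected ratio of at least 0.6, with 39.4% (38.0 to 40.9) in runs, 44.0% (42.8 to 45.2) in chains of 5 to 9 and 55.8% (54.5 to 57.2) at isolated promoters. Peak width comes from the starts and ends that the rule chained, so it is given as a description only. The median width of promoter-proximal peaks was 698 bp in runs, 730 bp in chains of 5 to 9 and 1002 bp at isolated peaks, and that of distal peaks was 377, 366 and 334 bp.

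**Figure D4:**
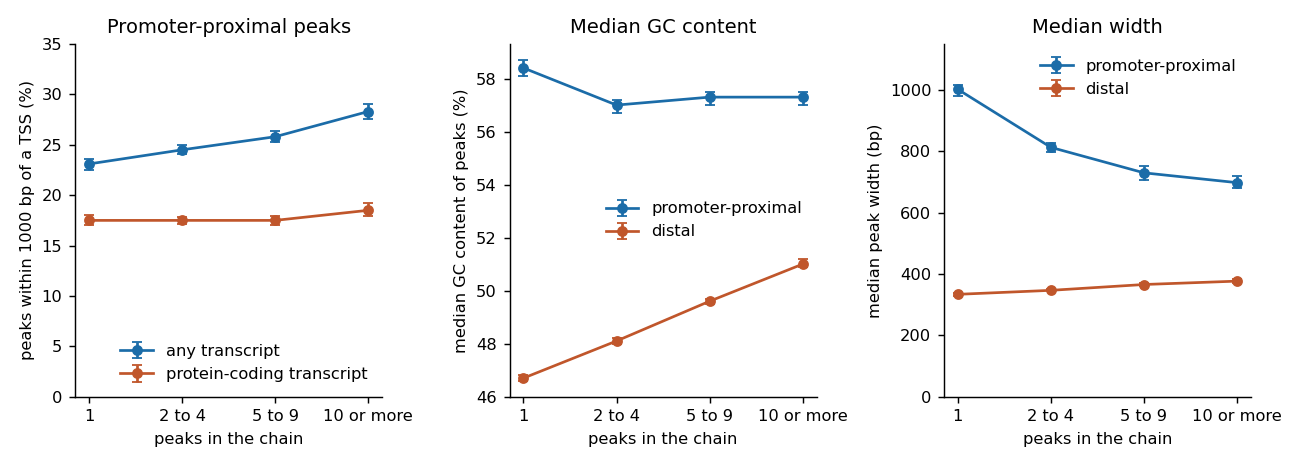
Share of promoter-proximal peaks (left), median GC content (middle, axis not from 0) and median width in bp (right) by the number of peaks in the chain, with 95% intervals. Distal GC content climbs from 46.7 to 51.0% with chain size, and promoter width, a description of what the rule used, goes from 1002 to 698 bp.

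The centres of distal peaks in runs lay in introns in 48.3% and between genes in 42.6% of cases, and 4.47% (4.10 to 4.87) lay in coding exons. In chains of 5 to 9 these shares were 49.2, 41.9 and 3.95% (3.68 to 4.25), and at isolated distal peaks 44.0, 51.6 and 1.90% (1.71 to 2.11). Multicopy peaks made up 4.56% (4.24 to 4.90) of peaks in runs and 4.62% (4.37 to 4.90) in chains of 5 to 9, against 6.93% of all other peaks and 10.8% (10.4 to 11.2) of isolated peaks. In 27 runs (2.45%) the median share of repeated words exceeded 50%, and 20 of these 27 had no protein-coding TSS. They held 403 of the peaks in runs (2.61%). They had a median GC content of 43.3% against 52.5% in the rest, and 3.26 peaks per 10 kb against 2.34. Beside the chromosome 13 run these included 28 peaks at Gm21190 and Gm21149 (chr5:15462477-15561949), 22 at Dynlt1b (chr17:6391792-6477466), and runs of 21 and 20 peaks on chromosome 12 that held 2 and 3 annotated immunoglobulin V genes. The part of repeated sequence in the density of these runs was not tested.

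Transcription factor consensus sequences were searched on both strands in distal peaks. KLF sites, bound by the Krüppel-like factors, were in 9.11% (8.59 to 9.66) of distal peaks in runs, 7.27% in chains of 5 to 9, 6.34% in chains of 2 to 4 and 5.28% of isolated distal peaks, and 8.72% of all listed peaks. The AP-2 consensus GCCNNNGGC, bound by TFAP2A and TFAP2C, gave 20.5% (19.7 to 21.2) in runs, 17.8% in chains of 5 to 9 and 14.6% at isolated peaks (23.7% of all listed peaks). Both were higher in runs on all 20 chromosomes. The ETS consensus CCGGAAG was at 5.02% in runs, 4.41% in chains of 5 to 9 and 3.72% at all other distal peaks, higher on 18 of 20 (7.55% of all listed peaks). Distal peaks in runs were also wider, and in the central 200 bp alone the difference from other distal peaks was 1.42 points for KLF (1.00 to 1.87), against 2.80 over whole peaks. For AP-2 it was 1.93 against 4.45, and for ETS 0.457 against 1.29.

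The SOX consensus CCNTTGT and CTCF were less frequent in runs than at isolated peaks, but close to chains of 5 to 9. SOX was at 25.8% in runs, 25.9% (25.3 to 26.6) in chains of 5 to 9 and 30.0% (29.3 to 30.7) at isolated distal peaks (28.0% of all listed peaks). CTCF was at 12.4% (11.8 to 13.0), 12.8% (12.4 to 13.3) and 14.8% (14.3 to 15.3), respectively (13.0%). CTCF was lower in runs than at other distal peaks on 18 of 20 chromosomes and SOX on 16. The YY1 consensus AAGATGGCG was at 0.514% in runs, 0.447% in chains of 5 to 9, 0.584% in chains of 2 to 4 and 1.88% at isolated peaks (1.43% of all listed peaks), so that isolated peaks stood apart rather than runs. When multicopy peaks were left out before chaining, the difference between runs and other distal peaks in YY1 was -0.0149 points (-0.142 to 0.146), and in SOX -0.894 (-1.83 to 0.0554). Both intervals then included 0. This removal was chosen after seeing the data.

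For OCT4::SOX2, the shares with a consensus match were 0.695% (0.556 to 0.867) in runs and 0.858% (0.790 to 0.932) at other distal peaks (0.780% of all listed peaks). The difference was -0.164 points, and its interval (-0.321 to 0.0218) included 0. Chains of 5 to 9 were at 0.703% (0.591 to 0.837), chains of 2 to 4 at 0.889% (0.789 to 1.00) and isolated peaks at 0.964% (0.830 to 1.12). With at most 1 mismatch the difference between runs and other distal peaks was -0.0184 (-0.0656 to 0.0577). The interval lay below 0 in the central 200 bp of peaks (-0.171, -0.275 to -0.0400) and without multicopy peaks (-0.212, -0.378 to -0.0135). The octamer ATGCAAAT, which overlaps the OCT4 side of the composite element, gave 2.30 and 2.55% (2.56% of all listed peaks), and the ESRRB consensus TCAAGGTCA 3.32 and 3.05% (2.82%), with intervals of the difference that included 0. That of the octamer excluded 0 in the central 200 bp (-0.224, -0.420 to -0.000376) and without multicopy peaks (-0.454, -0.739 to -0.136). The NRF1 consensus GCGCATGCG was at 0.352 and 0.215% (0.864% of all listed peaks), and the E-box CACGTGAC at 1.82 and 1.40% (2.20%), both higher in runs beyond the interval of the difference. Chains of 5 to 9 were at 0.273 and 1.77%, with intervals that overlapped those of runs. In the central 200 bp the E-box difference was 0.0554 (-0.107 to 0.247). Within runs, OCT4::SOX2 matches were in 0.994% of distal peaks of runs without a protein-coding TSS (30 of 3017) and 0.745% with 1 TSS (25 of 3355). They were in 0.510% with 2 to 4 (19 of 3725) and 0.303% with 5 or more, from only 3 matches (3 of 989). Median GC content of these distal peaks rose in the same order, at 50.3, 50.6, 51.6 and 53.3%, and its part was not tested.

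**Figure D5:**
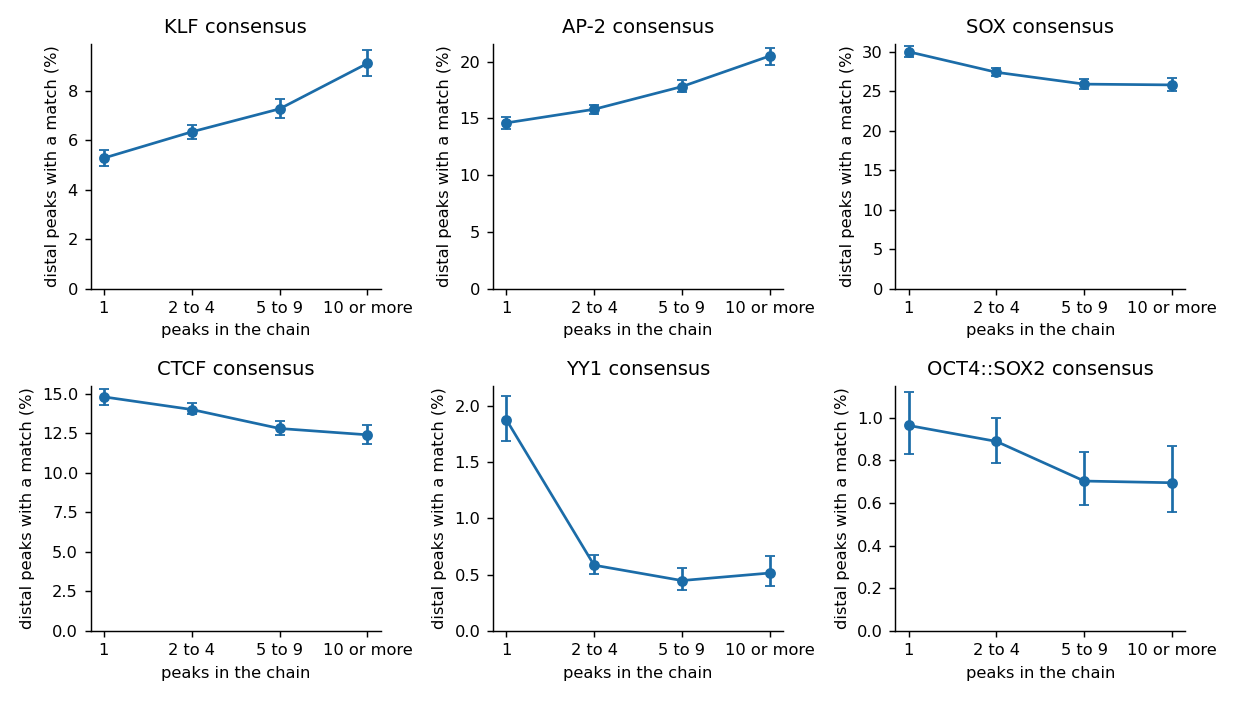
Percent of distal peaks with a match to each consensus, on either strand, by the number of peaks in the chain, with Wilson 95% intervals and axes from 0. KLF and AP-2 are higher in longer chains, while SOX, CTCF and YY1 are lower than at isolated peaks both in runs and in chains of 5 to 9. OCT4::SOX2 goes from 0.964% at isolated peaks (0.830 to 1.12) to 0.695% in runs (0.556 to 0.867). These intervals overlap, which does not show that the shares are alike.

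Since GC content also differed, motif shares were compared within 6 bands of GC content. KLF was higher in runs in 5 of 6 bands, with separate intervals in 2 of them. At 45 to 50% GC it was 8.05% (7.11 to 9.11) in runs and 6.38% (6.05 to 6.73) at other distal peaks, and at 60% GC or more 13.9% (11.6 to 16.5) and 8.53% (7.45 to 9.76). AP-2 was higher in 4 of 6 bands, with separate intervals in 1, and at 55 to 60% GC it was 31.2% (29.2 to 33.3) against 26.1%. ETS was higher in 3 bands and lower in 3, with separate intervals in 1 each way, and at 60% GC or more it was 8.38% (6.61 to 10.6) in runs against 12.8% (11.5 to 14.2). SOX was higher in 3 bands and lower in 3, with separate intervals in 1 of the latter. OCT4::SOX2 was higher in 2 bands and lower in 4, with separate intervals in 0. CTCF was lower in 4 of 6, with separate intervals in 2, as at under 40% GC with 7.34% (5.53 to 9.68) against 14.6% (13.8 to 15.5), and higher in the band of at least 60% GC, with 10.9% (8.85 to 13.3) against 6.53% (5.58 to 7.63). In that same band YY1 was at 0.262% in runs and 9.07% at other peaks. Without multicopy peaks, the YY1 difference over all distal peaks was -0.0149 points (-0.142 to 0.146). The bands used whole peaks and were not repeated without multicopy peaks, so the part of repeated sequence in them was not tested.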

How the data were processed

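ATAC-seq reads were aligned by the authors to GRCm38 with STAR 2.6.1c, duplicates were removed with Picard, and peaks were called with MACS2 2.1.1.20160309 and merged over the dox-treated libraries. The deposited file gives chromosome, start and end only, without counts or scores. It was tested for a width filter that the methods of the study describe, and 2 peaks of the runs exceed 5000 bp. Removal of blacklisted regions from the list could not be tested.

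Peaks were chained as described in the report. Runs, gene lists and motifs were chosen with earlier results of these data known. TSS were those of GENCODE release M21 on GRCm38. A peak was promoter-proximal within 1000 bp of a TSS of any transcript, and a gene was placed by its annotated 5' end. GC content, soft-masked share, repeated words of 24 bases and consensus matches were read from the GRCm38 sequence. The OCT4::SOX2 and CTCF consensus allowed 2 and 1 mismatches. Named runs were the 10 with the most peaks, the 3 longest, the 3 densest and the 3 largest without a protein-coding TSS. Named genes were up to 4 per run with the most peaks within 10000 bp, and every gene of the symbol lists inside a run, to which others were added after their values were seen. Shares carry Wilson intervals and medians order-statistic intervals, and no hypothesis test was made. For lists with 0 genes in runs, the upper limit in the text is 3 divided by the number of genes. The Wilson upper ends of these lists were 27.8% for endoderm and for mesoderm genes, 0.350% for olfactory and 1.16% for vomeronasal receptors. Chaining, TSS distance and motif search were tested on simulated data. Scripts ran in Python 3.11.15 with scipy 1.17.1, pandas 2.3.3, matplotlib 3.10.9 and numpy 2.4.6.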

Additional observations from a re-analysis of the deposited data

How the results depend on the processing

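The number of runs (1102), of peaks in them (15454) and of protein-coding genes with a TSS in a run (2190) followed the chaining rule. They were 56, 679 and 72 with gaps of at most 5000 bp, 2296, 49071 and 8110 with 20000 bp, 367, 7071 and 1006 with at least 15 peaks, and 238, 2995 and 658 when peaks under 300 bp were left out, while at least 8 peaks gave 1922 runs. The other alternatives stayed within 1.5 times, including the removal of multicopy peaks, which was chosen after seeing the data.

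The promoter-proximal difference (3.75 points) stayed positive throughout, at 6.48 with gaps of 5000 bp, 5.04 with 20000 bp, 1.08 with protein-coding transcripts only, and 2.07 and 6.07 for TSS within 500 and 2000 bp. The difference in median GC content (2.73) also stayed positive, at 0.678 with gaps of 5000 bp, 2.97 with at least 15 peaks, 3.29 with peaks of at least 300 bp, 2.95 without multicopy peaks and 2.89 in distal peaks only.

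In the central 200 bp, the motif differences were 1.42 for KLF, 1.93 for AP-2, 0.457 for ETS and 0.0554 for the E-box, and that of ESRRB turned from 0.273 to -0.183, with intervals including 0 on both sides. CTCF with no mismatch gave -0.851, and without multicopy peaks SOX gave -0.894 and YY1 -0.0149. The cause of the remaining shifts was not tested.

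No paired analysis was possible because merged positions carry no values of single libraries. For the same reason the planned limma fit of MD-OCT4 against MD*-OCT4 by phase, the fit without the replicate block and those without replicate 1 or 2 were not run. Depth, peak strength and the number of libraries behind a peak are unknown, and wide or close peaks depend on how the caller joined signal.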
